A study of Rattus norvegicus with 22 samples.

Results

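The homeostatic astrocyte genes are a list of 9 genes that astrocytes use for water handling, gap junction coupling and cell identity, and of these Aqp4, Mlc1, Gja1, Gjb6, Aldh1l1, Aldoc, S100b and Fgfr3 were measured. These 8 are 8 of the 17172 gene rows in the count table, and all 8 passed the filter on low counts that left 12875 genes for testing. Sox9 was not analysed here. RNA sequencing (RNA-seq) counts came from bulk hippocampus on the injured side of 14 adult male Sprague-Dawley rats with no genetic modification. Lateral fluid percussion, a pulse of fluid pressure delivered to the brain surface through a craniectomy over the right hemisphere, gave a moderate traumatic brain injury (TBI). Sham rats had the same anesthesia and craniectomy without the pulse, so every rat in the series carries the surgery. The groups were sham day 1 (n = 2), TBI day 1 (n = 4), sham day 14 (n = 4) and TBI day 14 (n = 4), where the day counts from the operation.

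Astrocytes are the glial cells that clear potassium and glutamate, feed neurons and wrap blood vessels with endfeet. Aquaporin-4 (Aqp4) is the water channel of these endfeet, and Mlc1 is a membrane protein of the same contacts that takes part in volume regulation. Connexin 43 (Gja1) and connexin 30 (Gjb6) build the gap junctions that couple astrocytes into a network. Aldh1l1, a folate enzyme, and Aldoc, the brain aldolase of glycolysis, are used to identify astrocytes. S100b is a calcium-binding protein of astrocytes that is measured in blood after head injury, although oligodendrocytes make it too. Fgfr3 is a receptor for fibroblast growth factors (FGFs) that astrocytes carry. After injury, astrocytes become reactive and raise Gfap and other genes. The study was designed to find genes that TBI changes early and late, and the comparisons below ask this of the homeostatic genes.

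The promoters of Gjb6 and Fgfr3, the genes called at day 1, and of Gja1, the partner of Gjb6, are shown for orientation, from RefSeq on the build GRCr8, 5′ to 3′, each running from 250 bases before the annotated start to 50 bases after it. A promoter window was found for 8 of the 9 listed genes, 10 windows in all, and Gjb6 has 2, of which 1 is shown. Capitals mark an AP-1 site (TGANTCA) in Gja1, GC boxes (GGGCGG on either strand) in Gjb6 and Fgfr3, and in Fgfr3 also a TTGGC, the element read by nuclear factor I.
Gja1 (chr20:36302314-36302613, plus strand): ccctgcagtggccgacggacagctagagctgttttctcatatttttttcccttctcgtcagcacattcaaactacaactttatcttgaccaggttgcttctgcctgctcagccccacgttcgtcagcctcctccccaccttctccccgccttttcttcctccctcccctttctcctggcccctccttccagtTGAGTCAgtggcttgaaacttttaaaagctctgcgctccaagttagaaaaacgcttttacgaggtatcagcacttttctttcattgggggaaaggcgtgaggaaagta
Gjb6 (chr15:35410089-35410388, minus strand): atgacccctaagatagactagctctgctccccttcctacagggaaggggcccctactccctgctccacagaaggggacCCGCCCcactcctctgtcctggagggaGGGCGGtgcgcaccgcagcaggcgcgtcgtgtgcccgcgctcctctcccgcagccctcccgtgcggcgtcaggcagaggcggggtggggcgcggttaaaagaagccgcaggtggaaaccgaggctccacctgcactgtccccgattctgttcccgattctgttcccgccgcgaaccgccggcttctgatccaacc
Fgfr3 (chr14:81227160-81227459, minus strand): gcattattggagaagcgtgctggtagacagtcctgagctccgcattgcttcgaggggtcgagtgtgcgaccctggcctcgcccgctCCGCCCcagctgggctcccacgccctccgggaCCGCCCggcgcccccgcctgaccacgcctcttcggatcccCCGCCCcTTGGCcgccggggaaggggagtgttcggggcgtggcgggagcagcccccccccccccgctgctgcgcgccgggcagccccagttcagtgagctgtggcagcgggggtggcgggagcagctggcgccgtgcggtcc
No marked motif overlapped another. The 2 connexin promoters differ in these letters, since Gja1 holds the AP-1 site and no GC box, and Gjb6 holds 2 GC boxes in this window and no AP-1 site. Among all 33469 promoter windows, 7.33% held TGANTCA, 33.1% held GGGCGG and 45.8% held TTGGC on either strand. Over the 10 windows of the members, GGGCGG occurred in 6 (5 genes), TTGGC in 4 (4 genes) and TGANTCA in 1 (Gja1). A STAT site (TTCNNNGAA), present in 8.87% of all windows, occurred in 0 of these 10. A match is a description of the letters and not a measured site.

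Library totals lay between 15065540 and 23743703 counts, and the members had between 308 (Aldh1l1) and 66698 (S100b) counts in any library, so counting error was small beside the spread between rats. Levels are given as log2 CPM, where CPM are the counts scaled to a common library total. They are not corrected for transcript length, so levels are compared between rats and not between genes. The sham day 1 rats differed from each other in the tissue their libraries held. The summed level of 18 choroid plexus markers was 11450 CPM in sham day 1 replicate 1 and 215.5 CPM in replicate 2, against 136.4 to 157.3 CPM in TBI day 1 and 158.9 to 255.3 CPM in sham day 14. TBI day 14 replicates 2 and 3 also carried choroid plexus RNA, with 2126 and 8881 CPM. Prox1, which marks dentate granule cells, stood at 4.86 log2 CPM in sham day 1 replicate 1 and 6.79 in replicate 2, while Wfs1, which marks CA1 pyramidal cells, stood at 8.41 and 6.16. Each of the 8 members was higher in sham day 1 replicate 1 than in replicate 2. The day 1 changes of the members are therefore given below also without each of these rats, and the part of tissue composition in them was not tested.

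**Figure D1:**
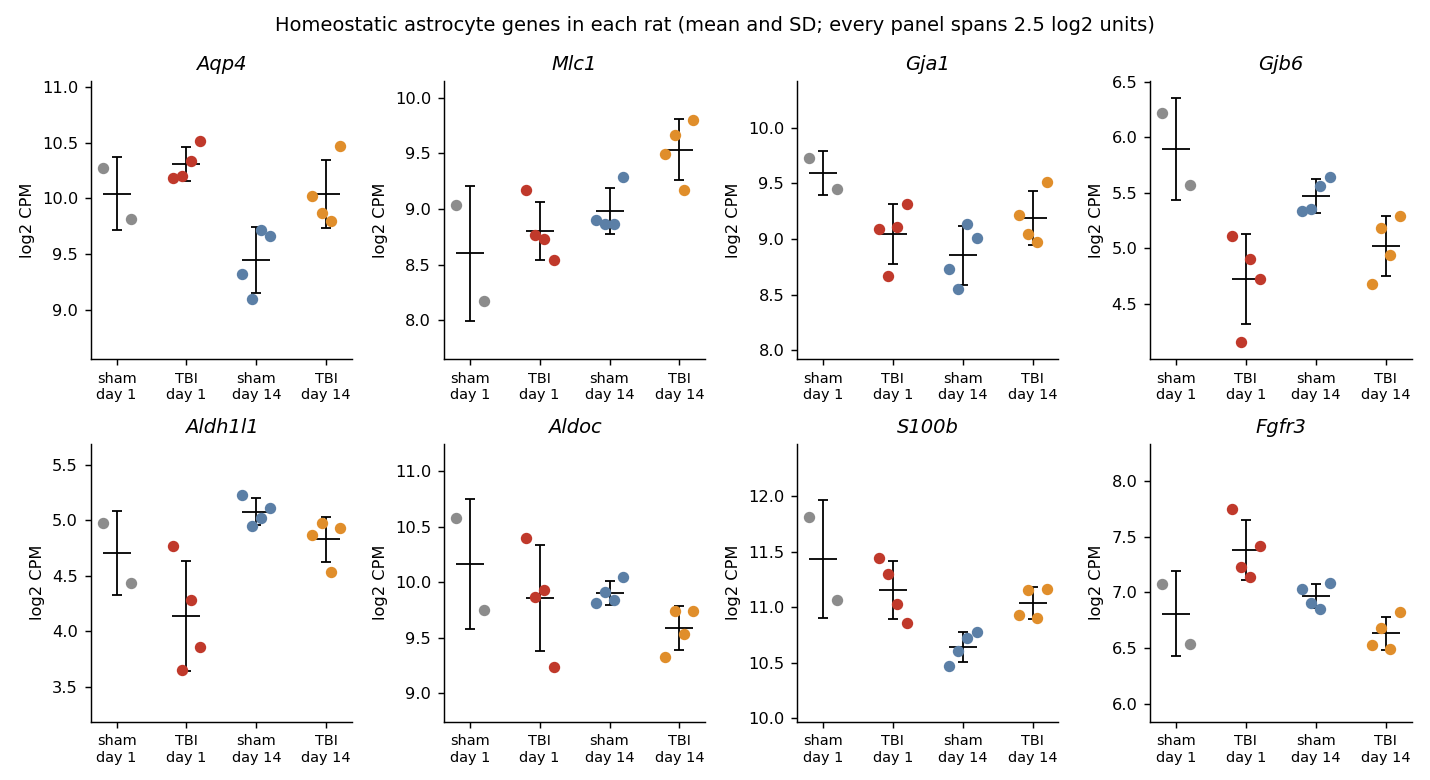
Level of each member in log2 CPM (vertical axis) by group (horizontal axis), with 1 point per rat and a bar for the mean and SD of the group; every panel spans the same height. Gjb6 is lower in all 4 TBI rats than in all shams of the same day, and Fgfr3 is above both shams at day 1 and below all 4 shams at day 14.

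At day 1 after injury, Gjb6 fell and Fgfr3 rose, while the other 6 members did not pass the test. Gjb6 fell to 0.445 of its sham level and Fgfr3 rose 1.48-fold in edgeR's quasi-likelihood test at a Benjamini-Hochberg adjusted p under 0.05. Of all genes tested, 11.2% were called higher and 7.93% lower in this comparison, so 1 of 8 in each direction is near the background. The median log2 fold change was −0.31 over the members and −0.02 over all genes tested. In bulk tissue, fewer astrocytes and less RNA per astrocyte cannot be told apart.

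Connexin 30 (Gjb6) stood at 6.22 and 5.57 log2 CPM in the sham day 1 rats and at 5.11, 4.16, 4.90 and 4.72 in the TBI day 1 rats. All 4 injured rats lay below both shams. The log2 fold change was −1.17 ± 0.24 (SE, 95% interval −1.67 to −0.66, edgeR adjusted p = 0.00361). Without sham day 1 replicate 1 it was −0.81 with an adjusted p of 0.0501 in edgeR, and without replicate 2 it was −1.46 (edgeR adjusted p = 0.00513). With only the day 1 samples in the fit it was −1.14 with an adjusted p of 0.0666. With the choroid plexus level as a covariate the value was −1.01 (edgeR adjusted p = 0.0179).

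Connexin 43 (Gja1) stood at 9.73 and 9.45 log2 CPM in the sham day 1 rats and at 9.09, 8.67, 9.11 and 9.32 in the TBI day 1 rats. Here too the injured rats all lay below both shams. The log2 fold change of −0.54 ± 0.21 (SE) had an interval from −0.97 to −0.10 and an edgeR adjusted p of 0.0812, which misses the threshold. Without sham day 1 replicate 1 it was −0.39 (edgeR adjusted p = 0.296), without replicate 2 −0.67 (edgeR adjusted p = 0.146), and with the choroid plexus covariate −0.58 (edgeR adjusted p = 0.106). It passed without TBI day 1 replicate 4 (−0.63, edgeR adjusted p = 0.0441) and with the replicate numbers as a block (−0.70, edgeR adjusted p = 0.0135). The labels do not say that those numbers pair the rats.

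Fgfr3 stood at 7.08 and 6.54 log2 CPM in the sham day 1 rats and at 7.75, 7.23, 7.14 and 7.42 in the TBI day 1 rats. The groups did not overlap, but the lowest injured rat was within 0.1 log2 units of the higher sham. The log2 fold change was 0.57 ± 0.19 (SE, 95% interval 0.17 to 0.97, edgeR adjusted p = 0.0469). This call is at the edge of the threshold. It was lost in 11 of the 14 fits that left out 1 library, and was kept only without sham day 1 replicate 1, TBI day 1 replicate 2 or TBI day 1 replicate 3. Without sham day 1 replicate 1 the value was 0.86 (edgeR adjusted p = 0.0164), without replicate 2 it was 0.32 (edgeR adjusted p = 0.451), and the adjusted p ran from 0.0164 to 0.451 over all alternatives.

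Groups that do not overlap were found for 1 member in the higher direction (Fgfr3) and 2 in the lower direction (Gja1 and Gjb6) at day 1. Among all genes tested these shares were 16.7% and 14.1%.

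The water and volume genes did not pass at day 1. Aqp4 stood at 10.27 and 9.81 log2 CPM in the sham day 1 rats and at 10.18, 10.20, 10.33 and 10.52 in the TBI day 1 rats, a log2 fold change of 0.25 (95% interval −0.22 to 0.73, edgeR adjusted p = 0.45). Mlc1 stood at 9.03 and 8.17 in the shams and at 9.17, 8.77, 8.73 and 8.54 in the injured rats, a log2 fold change of 0.16 (95% interval −0.36 to 0.68, edgeR adjusted p = 0.687). For both genes the injured rats overlapped the shams. Without sham day 1 replicate 1 the differences were 0.50 for Aqp4 and 0.65 for Mlc1, and without replicate 2 they were 0.04 for Aqp4 and −0.21 for Mlc1, none of them past the threshold.

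The astrocyte enzymes and S100b did not pass at day 1 either. Aldh1l1 stood at 4.97 and 4.44 log2 CPM in the sham day 1 rats and at 4.76, 3.66, 4.28 and 3.86 in the TBI day 1 rats, a log2 fold change of −0.53 (95% interval −1.07 to 0.01, edgeR adjusted p = 0.149). Injured replicate 1 lay between the shams, and without it the difference was −0.78 (edgeR adjusted p = 0.0168). Without sham day 1 replicate 1 it was −0.24 (edgeR adjusted p = 0.597), and without replicate 2 it was −0.77 (edgeR adjusted p = 0.15). Aldoc ranged from 9.24 to 10.39 in the injured rats, against 10.58 and 9.75 in the shams. S100b stood at 11.81 and 11.06 in the shams and at 11.44, 11.30, 11.03 and 10.85 in the injured rats. Their log2 fold changes were both −0.31, with edgeR adjusted p-values of 0.436 for Aldoc and 0.304 for S100b. Both turned positive without sham day 1 replicate 1, to 0.17 for Aldoc and 0.11 for S100b, and without replicate 2 they were −0.66 and −0.64.

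A single injured rat stood highest for most members at day 1. TBI day 1 replicate 1 had the highest level of 6 of the 8 members among the 4 injured rats and the lowest level of Aqp4. The same rat had the highest summed level of 15 oligodendrocyte markers, 17020 CPM against 5647, 10810 and 5041 CPM in replicates 2, 3 and 4. It also had the lowest summed level of 15 neuron markers, 6634 CPM against 11070 to 11450 CPM in the others. Aldh1l1 in the injured rats was highest in replicate 1 and next in replicate 3, as the oligodendrocyte markers were. It was lower in replicate 2 (3.66 log2 CPM) than in replicate 4 (3.86), where the markers had the opposite order. S100b, which oligodendrocytes make too, did not follow the marker order, with 11.44, 11.30, 11.03 and 10.85 in replicates 1, 2, 3 and 4. Aldoc, alone of the members, had the full marker order, with 10.395, 9.868, 9.934 and 9.239 log2 CPM in replicates 1, 2, 3 and 4. The part of cell composition in these values was not tested.

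At day 14 after injury, 0 of the 8 members were called by edgeR in either direction, and of all genes tested 4.07% were called higher and 0.365% lower. At an unadjusted p under 0.05, which makes no call, 3 of 8 members were on the higher side and 2 on the lower side, against 9.03% and 4.28% of all genes tested. DESeq2 called 1 member higher, Aqp4, and 5.23% of all genes tested. The median log2 fold change was 0.04 over the members and −0.03 over all genes tested, with the members spread to both sides.

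Aqp4 had the lowest p at this time. It stood at 9.32, 9.10, 9.71 and 9.66 log2 CPM in the sham day 14 rats and at 10.03, 9.87, 9.80 and 10.47 in the TBI day 14 rats. Every injured rat lay above every sham. The log2 fold change was 0.60 ± 0.18 (SE, 95% interval 0.21 to 0.98, edgeR adjusted p = 0.0914), and the adjusted p was 0.0284 in DESeq2, 0.0375 with the replicate block and 0.0451 with only the day 14 samples, but 0.156 with the choroid plexus covariate (0.61).

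Mlc1 stood at 8.90, 8.86, 8.86 and 9.29 log2 CPM in the sham day 14 rats and at 9.50, 9.66, 9.17 and 9.80 in the TBI day 14 rats. Injured replicate 3 fell under sham replicate 4, and the other 3 injured rats lay above all shams. The log2 fold change was 0.56 ± 0.20 (SE, 95% interval 0.14 to 0.99, edgeR adjusted p = 0.169).

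S100b stood at 10.47, 10.61, 10.72 and 10.78 log2 CPM in the sham day 14 rats and at 10.93, 11.15, 10.90 and 11.16 in the TBI day 14 rats. The groups did not overlap. The log2 fold change was 0.39 ± 0.17 (SE, 95% interval 0.03 to 0.76, edgeR adjusted p = 0.319). With only the day 14 samples in the fit, S100b (adjusted p = 0.0258) and Mlc1 (adjusted p = 0.0248) passed in edgeR, in a fit that called 7.38% of all genes tested higher. With the choroid plexus covariate S100b was at 0.28 (edgeR adjusted p = 0.706) and Mlc1 at 0.50 (edgeR adjusted p = 0.398), where TBI day 14 replicates 2 and 3 carried choroid plexus RNA.

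The connexins had differences of opposite sign at day 14, and neither passed. Gjb6 stood at 5.33, 5.35, 5.56 and 5.64 log2 CPM in the sham day 14 rats and at 4.68, 5.18, 4.94 and 5.29 in the TBI day 14 rats, a log2 fold change of −0.44 (95% interval −0.87 to −0.01, edgeR adjusted p = 0.357). All injured rats lay below all shams. Gja1 stood at 8.73, 8.55, 9.13 and 9.01 in the shams and at 9.21, 9.04, 8.97 and 9.52 in the injured rats, a log2 fold change of 0.33 (95% interval −0.04 to 0.69, edgeR adjusted p = 0.46), and the groups overlapped.

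Fgfr3 lay on the other side of sham from where it had been at day 1. It stood at 7.03, 6.90, 6.85 and 7.09 log2 CPM in the sham day 14 rats and at 6.53, 6.68, 6.49 and 6.82 in the TBI day 14 rats, a log2 fold change of −0.33 (95% interval −0.66 to −0.01, edgeR adjusted p = 0.347). Aldoc ranged from 9.32 to 9.74 in the injured rats and from 9.81 to 10.05 in the shams, a log2 fold change of −0.31 (95% interval −0.77 to 0.15, edgeR adjusted p = 0.66). Neither gene's groups overlapped. Aldh1l1 ranged from 4.54 to 4.97 in the injured rats and from 4.95 to 5.23 in the shams, a log2 fold change of −0.24 (edgeR adjusted p = 0.751).

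Groups that do not overlap at day 14 were thus found for 2 members in the higher direction (Aqp4 and S100b) and 3 in the lower direction (Gjb6, Aldoc and Fgfr3), against 9.13% and 5.86% of all genes tested.

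**Figure D2:**
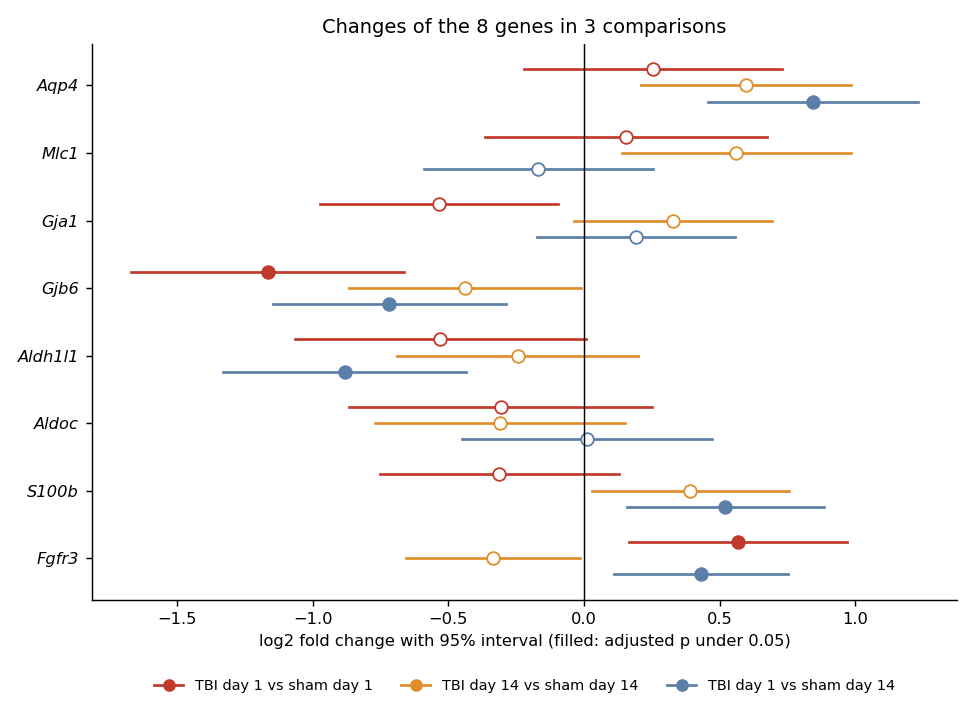
Log2 fold change (horizontal axis) of each member with its 95% interval in 3 comparisons, filled where the adjusted p of edgeR was under 0.05. Gjb6 lies to the left of 0 in all 3, and Fgfr3 lies to the right at day 1 (0.57) and to the left at day 14 (−0.33).

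Whether the effect of injury differed between the days was tested as the day 1 effect minus the day 14 effect. No member passed in edgeR, and 3.68% of all genes tested did. Fgfr3 came closest, with a difference of 0.90 ± 0.24 (SE, 95% interval 0.39 to 1.42, adjusted p = 0.0523 in edgeR and 0.00986 in DESeq2). Gja1 followed, with −0.86 ± 0.27 (SE, 95% interval −1.44 to −0.29, adjusted p = 0.0873 in edgeR and 0.0342 in DESeq2). For S100b the difference was −0.70 (edgeR adjusted p = 0.161), and for Gjb6, lower at both days, it was −0.73 (edgeR adjusted p = 0.212). At an unadjusted p under 0.05, which makes no call, stood 4 of 8 members (Gja1, Gjb6, S100b and Fgfr3) and 19.2% of all genes tested. Without sham day 1 replicate 1 the differences were −0.28 for S100b and −0.37 for Gjb6, and without replicate 2 they were −1.03 (edgeR adjusted p = 0.0475) and −1.02.

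The ratio of the connexins was followed in each rat because they were measured in the same library, and this ratio was chosen after the values had been seen, so it is described without a test. Gja1 reads per Gjb6 read numbered 11.45 and 14.79 in the sham day 1 rats and 15.79, 22.86, 18.52 and 24.26 in the TBI day 1 rats. The ratio was 10.52, 9.202, 11.9 and 10.33 in the sham day 14 rats and 23.28, 14.52, 16.43 and 18.79 in the TBI day 14 rats. Injured rats had the higher ratio at both days with no overlap within a day, and TBI day 14 replicate 2 was the sole injured rat under a sham, sham day 1 replicate 2. The group means were 13.1 ± 2.36 and 20.4 ± 3.90 at day 1 (SD, n = 2 and 4), and 10.5 ± 1.11 and 18.3 ± 3.78 at day 14 (SD, n = 4 each), for sham and TBI in turn. The transcripts' lengths are not in the ratio, so its changes can be read but not its absolute value.

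**Figure D3:**
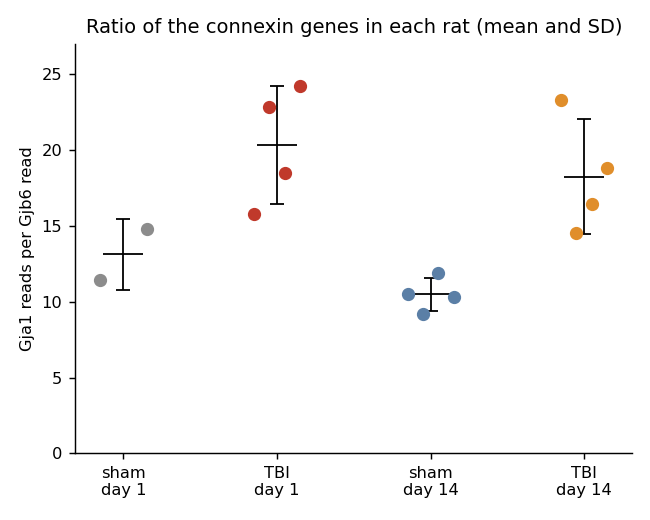
Gja1 reads per Gjb6 read (vertical axis, starting at 0) by group, with 1 point per rat and a bar for the mean and SD. The injured rats lie between 14.52 and 24.26 and the shams between 9.202 and 14.79.

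The study followed its time courses from sham day 14 as a common baseline, so TBI day 1 was also set against sham day 14. This comparison shares its samples with the comparisons above and has 4 rats on each side, but it also holds the difference between days after surgery. Of all genes tested, 25% were called higher and 21% lower in it, against 3 and 2 of the 8 members. Aqp4 (0.85 ± 0.18, SE), S100b (0.52 ± 0.17) and Fgfr3 (0.43 ± 0.15) were higher, with edgeR adjusted p-values of 0.00165, 0.0215 and 0.029. Aldh1l1 (−0.88 ± 0.21) and Gjb6 (−0.72 ± 0.20) were lower, with edgeR adjusted p-values of 0.00331 and 0.00916. All 5 had groups that did not overlap. The S100b call was lost without TBI day 1 replicate 2, sham day 14 replicate 1 or sham day 14 replicate 2, and the Fgfr3 call without TBI day 1 replicate 1, sham day 14 replicate 2 or sham day 14 replicate 3. The calls of Aqp4, Aldh1l1 and Gjb6 stood in every alternative run. Sham rats alone, day 1 minus day 14, gave 0.59 for Aqp4, 0.83 for S100b and −0.14 for Fgfr3. The same sham difference was −0.35 for Aldh1l1 and 0.45 for Gjb6. Against the sham day 1 rats, Aqp4 in TBI day 1 differed by 0.25 (edgeR adjusted p = 0.45). The rise of Aqp4 by 0.85 thus cannot be assigned to injury alone.

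The shams themselves differed between the days. At day 1 the sham level of Gja1 exceeded that of day 14 by 0.73 ± 0.20 on the log2 scale (SE, edgeR adjusted p = 0.0253), and S100b by 0.83 ± 0.20 (SE, edgeR adjusted p = 0.0131). Of all genes tested, 11.3% were called higher and 7.88% lower in sham day 1. With only 2 rats at day 1 these calls rest on few animals. The S100b call was lost without sham day 1 replicate 1 (0.41, edgeR adjusted p = 0.189), the library with the most choroid plexus RNA, and with the choroid plexus covariate (0.66, edgeR adjusted p = 0.0654). The Gja1 call was lost when sham day 1 replicate 1 or 2 or sham day 14 replicate 1 or 2 was left out, with values from 0.58 to 0.86. Aqp4 had a sham difference of 0.59 ± 0.22 (SE, edgeR adjusted p = 0.0685), which misses the threshold, although the sham groups did not overlap. It passed in DESeq2 (adjusted p = 0.046), with the replicate block (edgeR adjusted p = 0.016) and without sham day 14 replicate 3 (edgeR adjusted p = 0.0481). Without sham day 1 replicate 1 it was 0.34, and without replicate 2 it was 0.81. The time after surgery and the makeup of the 2 sham day 1 libraries cannot be told apart.

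Between the injured groups, 3 members differed. Fgfr3 was lower at day 14 than at day 1 by −0.77 ± 0.15 on the log2 scale (SE, edgeR adjusted p = 0.00118), with no overlap between the groups. Mlc1 was higher at day 14 by 0.73 ± 0.20 (SE, edgeR adjusted p = 0.00945), and Aldh1l1 by 0.64 ± 0.21 (SE, edgeR adjusted p = 0.0253). Of all genes tested, 17.6% were called higher and 21.9% lower at day 14. The Fgfr3 and Mlc1 calls stood in every alternative run. The Aldh1l1 call was lost with library size scaling, the choroid plexus covariate or only these samples, and without TBI day 1 replicate 2 or 4 or TBI day 14 replicate 1, 2 or 4. Its adjusted p ran from 0.0012 to 0.0763 over all alternatives.

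Across the 14 rats the members did not move as a unit. Gjb6 had the widest range, 2.06 log2 units, from TBI day 1 replicate 2 to sham day 1 replicate 1, and Gja1 the narrowest, 1.18. Likeness was measured as the root-mean-square difference between profiles of log2 CPM, each centred on its own mean over the 14 rats. The most alike pairs of members were Gja1 and S100b (0.303), Aqp4 and S100b (0.315) and Aqp4 and Gja1 (0.317), and the least alike were Aqp4 with Aldh1l1 (0.753) and Aqp4 with Gjb6 (0.713). The connexins differed from each other by 0.445.

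Among genes outside the list, the nearest to the mean profile of the members were Rnase4 (0.0897), Stxbp3 (0.0941), Mtss1l (0.121), Paqr7 (0.135), Brsk1 (0.135) and Lzts2 (0.138). Nearest to single members were Txnip and Pmp22 to Aqp4 (0.172 and 0.180), Fkbp14 and Sox8 to Gja1 (0.170 and 0.171), and Acot11 and Grm3 to Gjb6 (0.188 and 0.219). Rnd2 and Shd lay nearest to Aldoc (0.122 and 0.172), Tek and Fermt2 to Fgfr3 (0.136 and 0.152), Edem2 and Cd81 to Mlc1 (0.149 and 0.166), Foxo4 and Appl2 to Aldh1l1 (0.170 and 0.171) and Pon2 and Ntrk2 to S100b (0.176 and 0.179). These are likenesses over 14 libraries that share groups and tissue makeup, given without a test.

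Other genes of the same functions were taken from 8 lists of neighbours, and 109 of their genes were tested. At day 1, 12 (11%) were higher and 19 (17.4%) lower by edgeR at an adjusted p under 0.05, against 11.2% and 7.93% of all genes tested. At day 14, 4 (3.67%) were higher and 0 lower, against 4.07% and 0.365%. DESeq2 called 9 higher and 1 lower at day 14, against 5.23% and 0.924% of all genes tested. The medians over all genes tested, −0.02 at day 1 and −0.03 at day 14, are the background for the list medians below.

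The endfoot water and ion genes, the partners of Aqp4 and Mlc1, were lower where they were called at day 1. Of 12 tested, 0 rose and 4 fell, with a median log2 fold change of −0.46. Among those that fell were the bicarbonate transporter Slc4a4 (−0.99), dystrophin (Dmd, −0.68) and the intracellular aquaporin Aqp11 (−0.55), with edgeR adjusted p-values from 0.00237 to 0.048. The potassium channel Kcnj10 had a log2 fold change of −0.72 that did not pass (edgeR adjusted p = 0.123). At day 14, 0 of 12 were called and the median was −0.15.

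Of 8 other connexins and pannexins, 2 fell at day 1 and 0 rose, and 0 were called at day 14. Gjd2, the connexin of neurons, was among those that fell (−2.15, edgeR adjusted p = 7.97e-05). Gjb2, which astrocytes also use, had a log2 fold change of −0.14 (edgeR adjusted p = 0.88).

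In the list of FGF family genes, receptors and feedback genes, 3 of 17 rose and 4 fell at day 1, and 0 were called at day 14. The decoy receptor Fgfrl1 (1.54), the feedback inhibitor Spry1 (1.48) and the ligand Fgf2 (1.28) rose. The ligand Fgf9 (−1.004), Fgf12 (−0.87), the FGF-responsive transcription factor Etv5 (−0.86) and the receptor Fgfr2 (−0.47) fell. The edgeR adjusted p-values of these 7 lay between 0.000192 and 0.0462. Fgfr1 had a log2 fold change of −0.15 (edgeR adjusted p = 0.583), so the called receptors of the family went in both directions, Fgfr3 higher and Fgfr2 lower. These day 1 values are against the 2 sham day 1 rats. Set against sham day 14, 4 of the 17 were higher and 2 lower, with a median of 0.09, beside 25% and 21% of all genes tested. Mean log2 CPM in sham day 1, TBI day 1 and sham day 14 was 3.93, 2.90 and 3.20 for Fgf9. It was 5.45, 4.58 and 4.71 for Fgf12, 6.96, 6.13 and 6.36 for Etv5, and 7.62, 7.15 and 7.44 for Fgfr2.

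Of 14 genes of astrocyte metabolism, 2 rose and 1 fell at day 1. The glutathione transferase Mgst1 (1.66) and glutamine synthetase (Glul, 0.59) rose, and the brain glycogen phosphorylase Pygb (−0.62) fell, with edgeR adjusted p-values of 0.00243, 0.0476 and 0.00261. At day 14, Mgst1 (1.31) and the lipoprotein-associated phospholipase Pla2g7 (1.09) were higher, with edgeR adjusted p-values of 0.00425 and 0.00161. Of 10 glycolytic genes beside Aldoc, the phosphofructokinase Pfkm alone was called, lower at day 1 (−0.61, edgeR adjusted p = 0.00218), and Aldoa had a log2 fold change of −0.15 (edgeR adjusted p = 0.615).

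Of 14 astrocyte transcription factors, 0 rose and 3 fell at day 1, and 0 were called at day 14. Those that fell were Nfix (−0.69), Sox8 (−0.59) and Lhx2 (−0.47), with edgeR adjusted p-values of 0.0483, 0.0247 and 0.0239. These falls are against the 2 sham day 1 rats. Set against sham day 14, 6 of the 14 were higher and 2 lower in TBI day 1, with a median of 0.41. In that comparison 25% and 21% of all genes tested were called. Mean log2 CPM in TBI day 1 and sham day 14 was 6.23 and 5.95 for Nfix, 5.02 and 4.89 for Sox8, and 7.09 and 6.49 for Lhx2.

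Of 24 astrocyte surface receptors and secreted proteins, 2 rose and 4 fell at day 1. The zinc transporter Slc39a12 (1.90) and the secreted protease Htra1 (0.79) rose. Btbd17 (−2.17), the tight junction claudin Cldn10 (−1.51), the GABA transporter Slc6a11 (−1.35) and the metabotropic glutamate receptor Grm3 (−1.03) fell, and the 6 edgeR adjusted p-values lay between 7.97e-05 and 0.0169. The glutamate transporters Slc1a2 (−0.68, edgeR adjusted p = 0.19) and Slc1a3 (0.12, edgeR adjusted p = 0.743) did not pass. At day 14 the BMP antagonist Chrdl1 alone was called, higher by 0.80 on the log2 scale (edgeR adjusted p = 0.0257).

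Of 10 partners of S100b and other S100 genes, 5 rose at day 1 and 0 fell, with a median log2 fold change of 0.86. S100a4 (3.92), S100a10 (3.68), S100a6 (2.81) and Ahnak (1.41), a large scaffold protein that binds S100 proteins, rose with edgeR adjusted p-values from 3.41e-07 to 0.00441. S100b itself had −0.31. At day 14, S100a4 was higher by 2.55 on the log2 scale (edgeR adjusted p = 1.38e-05).

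The reactive astrocyte genes moved in the same libraries. Of 20 tested, 18 rose at day 1 and 11 at day 14, 0 fell, and their median difference was 3.45 and 1.496 log2 units on the 2 days in turn. Serpina3n (9.47), Lcn2 (7.26), Timp1 (6.31) and Hspb1 (5.87) rose most at day 1, with edgeR adjusted p-values of at most 6.15e-06. Aspg (2.98), Lcn2 (2.77), Serpina3n (2.65) and Vim (2.12) led among those called at day 14. Gfap rose by 3.10 at day 1 and by 2.06 at day 14 on the log2 scale, with edgeR adjusted p-values of 2.02e-05 and 7.26e-05. The summed level of the reactive genes ran from 1109 to 2045 CPM in the shams, from 10520 to 16170 CPM in TBI day 1 and from 4718 to 7973 CPM in TBI day 14. The sums of the reactive genes in injured rats thus lay above all shams. Gfap weighs most in these sums, with 12650 of 15780 CPM in TBI day 1 replicate 1 and 1558 of 1893 CPM in sham day 1 replicate 1. For the sums of the 8 members, in which S100b weighs most, the sham day 1 rats stood at 7976 and 5045 CPM. The TBI day 1 rats ran from 5141 to 6685 CPM, and all 4 lay between the 2 shams of their day. At day 14 the injured rats stood at 5091, 5575, 4773 and 6378 CPM against 4068, 4101, 4668 and 4985 CPM in the shams, so that 3 of 4 injured rats lay above every sham of that day. Whether the lists differ was not tested.

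**Figure D4:**
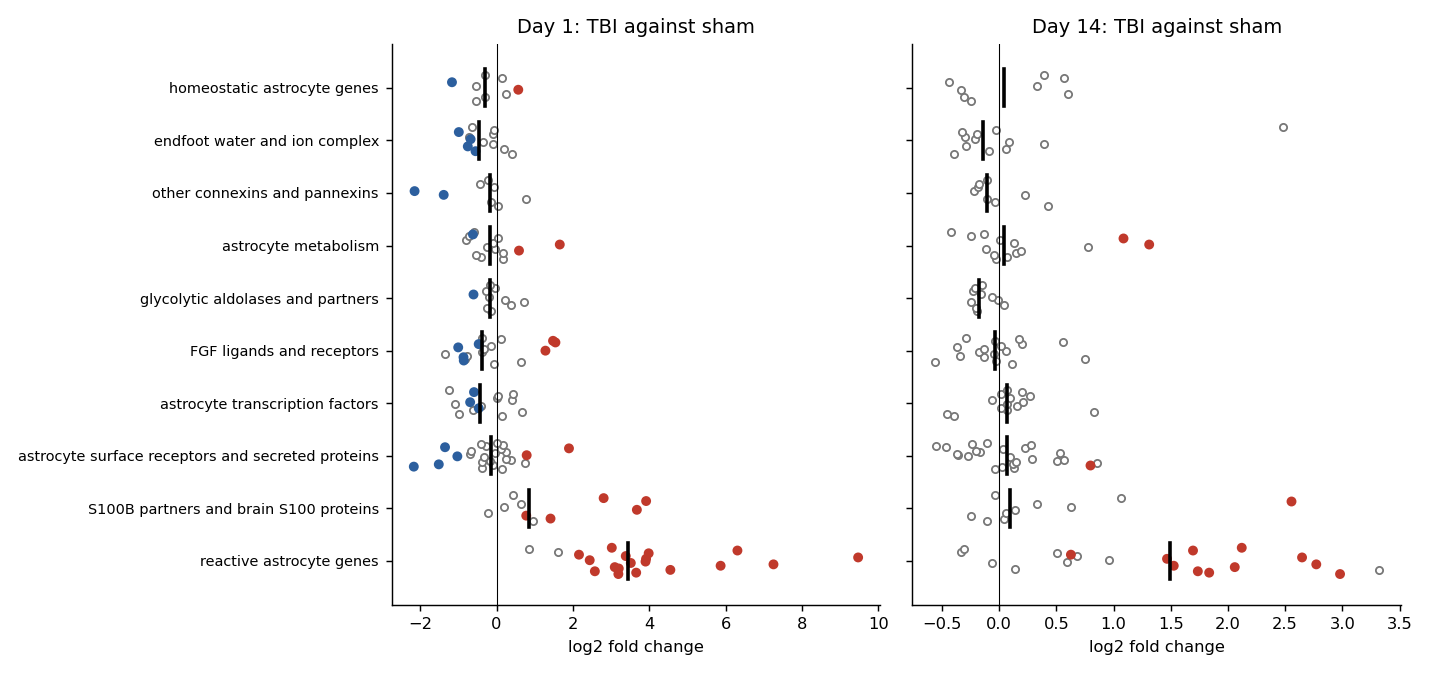
Log2 fold change (horizontal axes, of different width) of every tested gene in the homeostatic list, its 8 neighbouring lists and the reactive list, TBI against sham at each day; red and blue points passed the test as higher and lower, open points did not, and black bars are medians. The median of the homeostatic genes is −0.31 at day 1 and 0.04 at day 14, and that of the reactive genes 3.45 and 1.496.

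Markers of other cells moved as well. At day 1, 5 of 15 neuron, 6 of 15 oligodendrocyte, 2 of 9 oligodendrocyte precursor, 3 of 10 hippocampal subfield and 13 of 17 choroid plexus markers fell and 0 of each rose. In the same comparison 3 of 13 endothelial and mural and 5 of 9 leukocyte markers rose and 0 fell, 4 of 13 microglia markers rose and 2 fell, 4 of 11 progenitor markers rose and 2 fell, and 0 of 11 ependymal markers were called. At day 14, 11 of 13 microglia markers, 1 of 9 leukocyte markers (Itgal) and 1 of 17 choroid plexus markers (Ttr) rose, and 0 of the others were called. The shares of all genes tested were 11.2% higher and 7.93% lower at day 1, and 4.07% and 0.365% at day 14. The day 1 counts are against the 2 sham day 1 rats, and a fit of only the day 1 samples called 4.38% higher and 0.739% lower. The choroid plexus counts follow single libraries. Their summed level was 11450 CPM in sham day 1 replicate 1 and 215.5 CPM in replicate 2. In TBI day 1 against sham day 14, 0 of the 17 were called. Ttr stood at 1407 and 7036 CPM in TBI day 14 replicates 2 and 3, and at 11.28 and 4.857 CPM in replicates 1 and 4. With the choroid plexus level as a covariate, the members called at day 1 were Gjb6 (−1.01) and Fgfr3 (0.66, edgeR adjusted p = 0.0486), and 0 were called at day 14. The part of the neuron, oligodendrocyte and subfield markers in the members' values was not tested.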

How the data were processed

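RNA-seq was made from ipsilateral hippocampus of 14 rats. The authors aligned single-end reads to rn5 with STAR 2.4.2a and obtained gene counts with featureCounts 1.5.0 and the UCSC annotation. The strand setting is not given in the sources used here. The deposited values are whole-number read counts per gene, without normalization. H3K4me3 peak lists were not used here.

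Counts were fitted by the quasi-likelihood test of edgeR 4.0.16 under R 4.3.3 (filterByExpr by group, TMM scaling, 1 mean per group over all 14 samples). P-values are two-sided and Benjamini-Hochberg adjusted over 12875 genes, with a threshold of 0.05. The SE is the log2 fold change divided by the square root of F. Levels use a prior count of 2. Libraries of a group differed beyond counting noise (chi-square per degree of freedom 12.9 to 167.85 between pairs). The code was tested on simulated data.

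The members and lists were chosen with earlier results of these data known. From each astrocyte list, up to 4 called genes per direction and day with the largest log2 fold change were named, as were the 6 genes nearest to the members' mean profile, the 2 nearest to each member, and genes chosen after their values were seen (Kcnj10, Gjb2, Aldoa, Fgfr1, Slc1a2, Slc1a3, Gfap, Prox1, Wfs1). A few genes that met this rule are not reported here. Motifs were searched in RefSeq promoters of GRCr8.

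Alternatives were limma-voom 3.58.1 (the study's method), DESeq2 1.42.0, median-of-ratios, upper-quartile or library size scaling, no filter, at least 10 counts in every sample, a replicate block, only the groups compared, a choroid plexus covariate, and each sample left out in turn.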

Additional observations from a re-analysis of the deposited data

Results flagged for a closer look

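Mlc1 in the sham day 14 rats was flagged for a sample far from the others: replicate 4 (9.29 log2 CPM) stood apart from 8.90, 8.86 and 8.86, with a gap of 0.916 of the group's range, above Dixon's 95% critical value. It was 1 of 27 groups of 4 tested, and chance flags about 1 in 20. Fgfr3 was flagged for a difference between the days: its TBI effect at day 1 minus that at day 14 was 0.9035 on the log2 scale, all 4 injured rats lying above the shams at day 1 and all 4 below them at day 14. The test of that difference gave an edgeR adjusted p of 0.0523, which misses the threshold.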

How the results depend on the processing

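Of the single-gene values under the alternatives, 1067 kept their direction and their side of the threshold, 35 lost and 19 gained a call, and 23 changed sign. The count of members higher at day 1 (1) became 0 with no filter or only the groups compared, and 0 to 1 with 1 library left out. The count lower at day 1 (1) became 2 with the replicate block (Gja1 added), 0 with only the groups compared, and 0 to 2 with 1 library left out. The count higher at day 14 (0) became 1 with DESeq2, 1 with the replicate block and 3 with only the groups compared. These fits called 5.23%, 3.69% and 7.38% of all genes tested higher at day 14. At day 1 the share higher was 9.07% with no filter and 4.38% with only the groups compared. The share lower at day 1 was 9.15% with the replicate block. For the difference between the days, the positive and negative shares were 4.66% and 3.52% with DESeq2. They were 2.13% and 1.55% with the replicate block, and 3.24% and 1.08% with library size only. The count whose effect differed between the days (0) became 2 with DESeq2, 2 with the replicate block (Gja1 and Fgfr3), 1 with library size only, and 0 to 1 with 1 library left out. With 1 library left out, the members called at TBI day 1 against sham day 14 (5) numbered 3 to 5, with 3 without sham day 14 replicate 2, and those between the shams (2) numbered 0 to 3, with 1 under the choroid plexus covariate. In the 8 neighbouring lists, the 12 higher at day 1 ran from 6 to 17 with 1 library left out, with 6 without sham day 1 replicate 2. The 19 lower at day 1 became 12 with library size only, 5 with only the groups compared, and 12 to 22 with 1 library left out. The 4 higher at day 14 became 9 with DESeq2, 13 with only the groups compared, and 3 to 9 with 1 library left out, with 9 when 1 or the other sham day 1 rat was left out. The 0 lower at day 14 became 1 with DESeq2, 1 with only the groups compared and 0 to 1 with 1 library left out. Of all genes tested, the share lower at day 1 was 7.93% with TMM scaling over all 14 samples. It was 4.45% with library size only and 0.739% with only the groups compared. At day 14, DESeq2 called 5.23% higher and 0.924% lower, and the fit of only the groups compared called 7.38% and 1.68%. The causes were not tested. The labels do not say that the same replicate numbers pair the rats. Over both days, 5 of 18 same-numbered pairs had a correlation of deviations over 0.1 (range −0.348 to 0.243). Within a day, sham with TBI, the correlations were 0.127 and 0.073 at day 1. At day 14 they were −0.038, 0.131, 0.24 and 0.115. These few pairs cannot decide whether the numbers pair rats within a day, so the block fit is given only as an alternative.

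Some signs changed, in 2 values near 0 and in larger ones when a sham day 1 rat was left out. Aldoc's difference between the days (0.0032) became 0 with median-of-ratios scaling (under 0 before rounding) and −0.0057 with no filter, and ran from −0.3556 to 0.4745 with 1 library left out. Aldoc at TBI day 1 against sham day 14 (0.0097) became −0.0418 with limma-voom, −0.0066 with DESeq2, −0.0066 with median-of-ratios scaling and −0.0206 with the replicate block, and ran from −0.193 to 0.1804 with 1 library left out. With 1 library left out, day 1 effects ran from −0.6399 to 0.1089 for S100b, from −0.6649 to 0.1653 for Aldoc and from −0.2117 to 0.6453 for Mlc1. Differences between the days ran from −0.5337 to 0.0021 for Aldh1l1 and from −0.775 to 0.0819 for Mlc1. Sham day 1 against sham day 14 ran from −0.1565 to 0.6737 for Aldoc, from −0.4323 to 0.1093 for Fgfr3 and from −0.8145 to 0.0425 for Mlc1. The low or high end of each of these day 1 and sham ranges came from leaving out a sham day 1 rat, after which the remaining one is assumed to vary like the other groups. With 2 rats, sham day 1 limits every comparison it enters.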
